A study of Homo sapiens with 10 samples.

Results

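Genes of the extracellular matrix and of matrix proteolysis were followed across 4 human myeloid cell lines exposed to OR21, and in HL60 derivatives resistant to AZA or to OR21. The set was chosen by gene symbol with earlier results of these arrays in view: the metalloproteinases MMP9, MMP2 and MMP8, their inhibitors TIMP1 and TIMP2, and the matrix proteins TGFBI, VCAN, COL14A1, CILP and SPP1. Of these 10 genes, 9 had a named probe set, against 17687 named genes on the array. TIMP2 was not analysed here. Because the differences described below are those that picked the genes, they are given as a description and without a test.

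Each condition had 1 array, 10 in all. HL60 cells, an acute myeloid leukaemia line, were measured after 500 nM OR21, as an AZA resistant and an OR21 resistant derivative, both labelled Control for treatment, and as the parental control. The myelodysplastic lines MDSL and SKM1 were measured after 100 nM OR21 and as controls. K562, a chronic myeloid leukaemia line, was measured after 500 nM OR21 and as a control. All labels give 96 hours, OR21 is the compound OR-2100 that the series title calls a hypomethylating agent, and no label says whether the derivatives are clones or whether controls received a vehicle. The 3 HL60 comparisons share 1 control array, and each line had a single dose, so between the lines at 500 nM and those at 100 nM dose and line cannot be told apart.

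The extracellular matrix is the meshwork of collagens, glycoproteins and proteoglycans around cells. Matrix metalloproteinases are zinc enzymes, made as inactive precursors, that cut these components, and TIMP proteins bind the active enzymes and block them. Neutrophils store MMP8 and MMP9 in granules, and monocytes and macrophages secrete MMP9, TIMP1, TGFBI, VCAN and SPP1. Hypomethylating agents are cytidine analogues that deplete DNA methyltransferases, and they can switch on genes whose promoters are methylated. DNA methylation itself was not measured here.

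Levels are log2 probe set intensities, and 1 log2 unit is a 2-fold difference. Probe sets of different genes cannot be compared in level, so each gene is compared with itself. The median of the 23 background probe sets lay between 5.41 and 5.43 log2 on 9 arrays and at 4.98 on the MDSL control array. For differences that end or start at or under this median, a value measured from the median is given where a result turns on it, and for a gene high on the other array it is a minimum. The OR21-treated HL60 array stood apart in its 4 hybridisation spikes, which averaged 11.71 log2 while the remaining arrays had 10.85 to 11.10, and in its polyadenylated spikes, which averaged 8.06 while the remaining arrays had 6.86 to 7.51. The OR21 differences of HL60 are therefore also given for the 9 genes after scaling each array to its hybridisation spikes. Values and counts of other genes in treated HL60 are given unscaled. Over all genes the scaling put the median HL60 difference at -0.81 log2, against -0.05 without it. Cell identity was checked on fixed markers. The myeloid markers lay above background in 7 of 7 genes on the HL60, MDSL and SKM1 arrays, and in 6 of 7 on the K562 arrays. K562 carried the erythroid factor KLF1 at 10.34 log2 when treated and 10.17 as control, and the remaining arrays had 4.67 to 6.48. Not every erythroid marker set K562 apart. GATA1 stood at 13.14 in control K562 and 10.99 in control MDSL, and TFRC at 14.38 and 14.39. Treated MDSL also had 4 of 4 erythroid markers above background. Of 9 fibroblast markers, 1 to 3 per array lay above the highest of the 10 background medians, and their summed intensity was 9.35 to 9.92 log2 over the 10 arrays. Most of this sum was COL1A2, at 8.79 to 9.50 on every array.

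The promoters of 3 genes are shown because these genes followed contrasting patterns: TGFBI was high in treated HL60 and SKM1 and in both derivatives, VCAN in the derivatives, and CILP in treated MDSL. Each stretch is the 250 bases before the RefSeq transcription start (GRCh38.p14), in the direction of the gene, with CpG dinucleotides, the sites of DNA methylation, in capitals. TGFBI lies at chr5:136028738-136028987 on the plus strand, VCAN at chr5:83471494-83471743 on the plus strand, and CILP at chr15:65211474-65211723 on the minus strand.
TGFBI: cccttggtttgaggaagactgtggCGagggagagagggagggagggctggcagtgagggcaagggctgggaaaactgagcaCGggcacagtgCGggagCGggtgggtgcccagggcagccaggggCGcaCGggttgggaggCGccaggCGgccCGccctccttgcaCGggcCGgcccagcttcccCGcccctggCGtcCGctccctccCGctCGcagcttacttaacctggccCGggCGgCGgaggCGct
VCAN: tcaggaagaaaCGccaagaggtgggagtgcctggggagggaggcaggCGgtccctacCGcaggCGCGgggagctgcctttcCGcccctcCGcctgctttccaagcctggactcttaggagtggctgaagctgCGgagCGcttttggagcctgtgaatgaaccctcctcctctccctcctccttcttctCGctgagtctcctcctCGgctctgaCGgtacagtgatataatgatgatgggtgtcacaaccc
CILP: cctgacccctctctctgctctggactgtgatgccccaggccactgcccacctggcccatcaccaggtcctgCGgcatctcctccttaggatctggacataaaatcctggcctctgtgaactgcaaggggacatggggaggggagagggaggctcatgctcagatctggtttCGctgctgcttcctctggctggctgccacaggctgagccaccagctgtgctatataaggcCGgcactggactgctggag
The TGFBI stretch held 20 CpG dinucleotides, more than 67.5% of the 35116 promoters of the table, the VCAN stretch 12 and the CILP stretch 3. TIMP1 had 12, SPP1 had 3 and MMP8 had 0, beside a median of 11 and quartiles of 3 and 23 over all promoters. The genes with large OR21 differences thus included promoters above the median CpG count, such as TGFBI, and promoters at the lower quartile, such as CILP and SPP1. The AP-1 motif TGANTCA, which reads the same on both strands, was in 0 of the 6 stretches and in 6.57% of all promoters of this length. MMP9, MMP2, TIMP2 and COL14A1 had no entry.

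With OR21, 5 of the 9 measured genes were at least 2-fold higher in HL60, where 10.2% of all genes were higher by that size and 11.1% lower. SKM1 had 5 (7.1% of all genes higher, 4.47% lower), MDSL had 4 (6.62% higher, 4.88% lower) and K562 had 0 (5.05% higher, 3.86% lower). The AZA resistant derivative had 5 (7.04% higher, 5.11% lower), and the OR21 resistant derivative also 5 (7.69% higher, 4.27% lower). At least 2-fold lower values occurred once, for VCAN in treated K562, and in 0 of 9 genes in each of the other 5 comparisons. The 9 genes were picked from these contrasts, so their counts carry no weight against the shares of all genes.

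**Figure D1:**
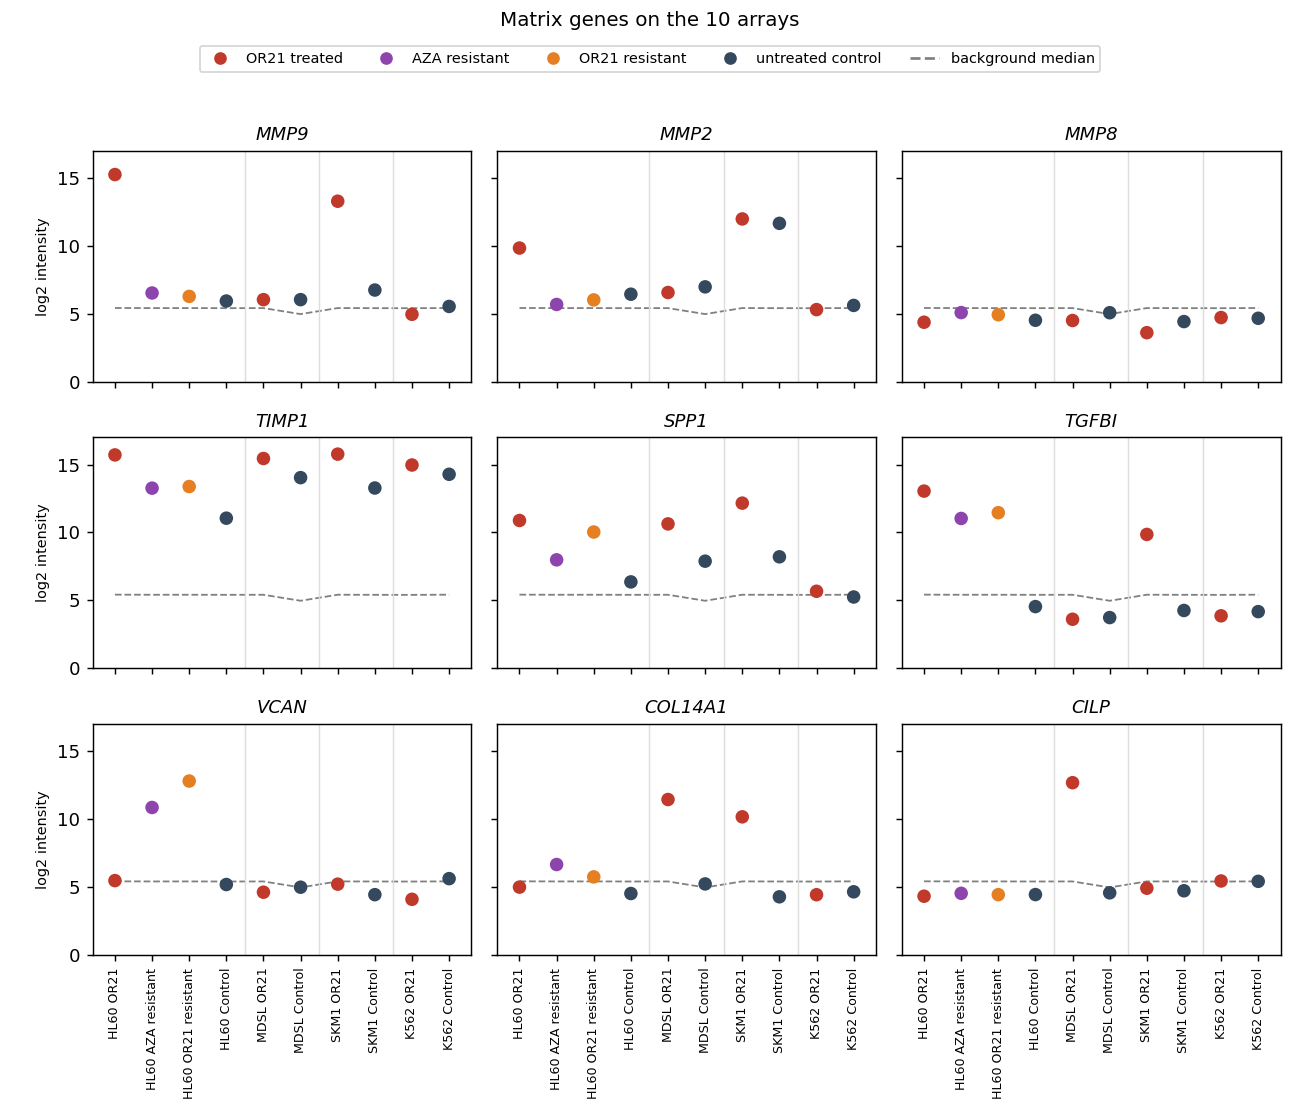
Log2 intensity of the 9 measured genes (panels) on each of the 10 arrays (horizontal axis, 1 point per array), with the median of the background probe sets as a dashed line. MMP9 stands at 15.25 and 13.28 in treated HL60 and SKM1, VCAN at 10.86 and 12.81 in the AZA and OR21 resistant derivatives, and CILP at 12.68 in treated MDSL.

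MMP9, the gelatinase that degrades basement membrane collagen, was high in 2 treated lines. In HL60 it stood at 15.25 log2 after OR21, at 6.53 in the AZA resistant and 6.28 in the OR21 resistant derivative, and at 5.94 in the control. SKM1 had 13.28 log2 when treated, against 6.75 in its control. MDSL had 6.04 both after OR21 and in the control, and K562 had 4.96 after OR21, under background, against 5.54 in the control. The OR21 difference was thus 9.31 log2 in HL60, or 8.55 scaled to the spikes, and 6.54 in SKM1, while in MDSL it was 0.00 and in K562 it was -0.58, or -0.13 measured from the background median. Neither derivative came near the level of acutely treated HL60, with differences from the control of 0.59 and 0.34.

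MMP2, the second gelatinase, had a different distribution. SKM1 had 11.98 log2 after OR21 and was already at 11.65 in the control. HL60 had 9.84 log2 after OR21, 5.68 in the AZA resistant and 6.02 in the OR21 resistant derivative, and 6.44 in the control. In MDSL the level was 6.56 after OR21 and 6.98 in the control, and in K562 it was 5.31 after OR21, under background, and 5.61 in the control. The single difference of at least 2-fold for MMP2 was that of treated HL60, at 3.40 log2 and 2.64 scaled to the spikes. SKM1 therefore had high MMP2 with or without the drug, while its MMP9 was high with the drug.

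MMP8, the neutrophil collagenase, was at or under background on 9 of the 10 arrays. Its range was 3.61 to 5.09 log2, and the MDSL control, at 5.08, was the 1 array above its own background median. Differences from control ran from -0.82 in treated SKM1 to 0.57 in the AZA resistant derivative, all within the range where background sets the value. Treated HL60 had -0.15, or -0.91 scaled to the spikes.

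TIMP1, a secreted inhibitor of metalloproteinases that also acts as a growth factor, was far above background on all 10 arrays. In HL60 it reached 15.71 log2 after OR21, 13.26 in the AZA resistant and 13.38 in the OR21 resistant derivative, against 11.05 in the control. The treated arrays of the other lines had 15.77 (SKM1), 15.45 (MDSL) and 14.97 (K562), and their controls had 13.27, 14.04 and 14.28 in that order. The 4 treated arrays thus covered 14.97 to 15.77 and the 4 controls 11.05 to 14.28. How many of all genes separate in this way was not counted. Differences were 4.66 for HL60 (3.90 scaled to the spikes), 2.49 for SKM1, 1.41 for MDSL and 0.68 for K562, with a mean of 2.31 ± 1.73 log2 (SD, n = 4 lines) and 1.53 without HL60. Control HL60 had the lowest TIMP1 of the 10 arrays, and the derivatives, higher by 2.21 and 2.33, lay close to control SKM1.

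SPP1 encodes osteopontin, a phosphorylated matrix protein that binds integrins and CD44 and is made by activated macrophages. In HL60 it stood at 10.88 log2 after OR21, 7.99 in the AZA resistant and 10.04 in the OR21 resistant derivative, and 6.36 in the control. MDSL had 10.63 after OR21 against 7.89 in the control, and SKM1 had 12.16 against 8.21. K562 had 5.67 after OR21 and 5.25 in the control, the control value being under background. SPP1 was therefore higher by 4.52 for HL60 (3.76 scaled to the spikes), 3.95 for SKM1, 2.74 for MDSL and 0.42 for K562, the K562 value being 0.25 measured from the background median. Its mean difference was 2.91 ± 1.82 log2 (SD, n = 4 lines). The derivatives were unequal in SPP1, with differences from the control of 1.62 for AZA resistance and 3.67 for OR21 resistance.

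TGFBI encodes a secreted adhesion protein, induced by TGF-beta, that binds collagens and integrins. It stood at 13.05 log2 in treated HL60 and 9.86 in treated SKM1, but at 3.62 in treated MDSL and 3.87 in treated K562, under background. The 2 derivatives, labelled Control for treatment, had 11.03 (AZA resistant) and 11.46 (OR21 resistant). The controls of HL60, SKM1, MDSL and K562 had 4.55, 4.26, 3.74 and 4.18 in that order, all under background. Measured from the background median, treated HL60 was higher by at least 7.64 log2 and treated SKM1 by at least 4.45. Without that limit the HL60 difference was 8.50, and 7.74 scaled to the spikes. The same minimum was 5.62 for the AZA resistant and 6.05 for the OR21 resistant derivative. The treated lines with high TGFBI, HL60 and SKM1, were those with high MMP9, but the derivatives had high TGFBI with MMP9 within 0.59 log2 of the control.

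VCAN encodes versican, a large chondroitin sulphate proteoglycan of the provisional matrix that monocytes produce. Its level was 10.86 log2 in the AZA resistant and 12.81 in the OR21 resistant derivative, against 5.19 in control HL60, under background. Treated HL60 had 5.48. The minimum difference from the control was 5.45 for the AZA resistant and 7.39 for the OR21 resistant derivative, and 0.06 for treated HL60. The sign of the treated HL60 difference, 0.29 without the limit, turned to -0.47 when scaled to the spikes. In the remaining lines VCAN stayed between 4.10 and 5.62: MDSL had 4.63 after OR21 and 4.99 in the control, SKM1 had 5.22 and 4.44, and K562 had 4.10 and 5.62. The K562 difference of -1.52 ended under background, and measured from the background median it was -0.21. High VCAN was thus seen on the 2 derivative arrays and on none of the 4 acutely treated arrays. The fibroblast marker FAP, a membrane serine protease, also stood at 7.01 in the AZA resistant and 5.91 in the OR21 resistant derivative, against 4.12 in control HL60. Of the 9 fibroblast markers, 2 lay above background on each of these 3 arrays, and their summed intensity was 9.85 and 9.47 log2 in the derivatives, against 9.38 in the control. LUM and DPT were under background on all 3. COL1A2 lay far above background, at 9.27 in the AZA resistant and 8.90 in the OR21 resistant derivative and 8.86 in the control, and made up most of these sums. The sums therefore say little about genes such as FAP.

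COL14A1 encodes the alpha chain of type XIV collagen, which binds the surface of collagen fibrils. It was high after OR21 in the 2 myelodysplastic lines, at 11.45 log2 in MDSL, against 5.23 in its control (above its own background median but under those of the other 9 arrays), and at 10.17 in SKM1, against 4.29 in its control. HL60 had 5.00 after OR21, 6.66 in the AZA resistant and 5.75 in the OR21 resistant derivative, and 4.53 in the control. K562 had 4.44 after OR21 and 4.66 in the control. The treated HL60 difference of 0.47, under background on both sides, turned to -0.29 when scaled to the spikes. The difference was 6.21 in MDSL and at least 4.76 in SKM1. In the derivatives the minimum was 1.25 for AZA resistance and 0.34 for OR21 resistance, so the measured OR21 resistant difference of 1.23 lies mostly under background. Among the 37 other collagen genes measured, 1 was at least 2-fold higher and 1 lower in MDSL (2.70% each, against 6.62% and 4.88% of all genes), and 2 were higher and 0 lower in SKM1 (5.41% higher, against 7.1% of all genes). COL6A1, a chain of type VI collagen, was higher by 1.79 log2 in MDSL and 1.89 in SKM1.

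CILP, a secreted protein of the cartilage matrix that binds growth factors, was high on 1 array. Treated MDSL had 12.68 log2, against 4.58 in its control, a difference of at least 7.71. HL60 stayed at 4.33 after OR21, 4.54 and 4.45 in the AZA and OR21 resistant derivatives and 4.45 in the control, and the treated HL60 difference was -0.12, or -0.88 scaled to the spikes. SKM1 had 4.92 after OR21 and 4.73 in the control, and K562 had 5.45 and 5.42. The other 9 arrays thus covered 4.33 to 5.45 log2, and COL14A1, high in both myelodysplastic lines, did not share this pattern. Of the 9 fibroblast markers, 2 lay above background on the treated MDSL array, and on its control 5 lay above its own, lower background median and 1 above the highest background median of the 10 arrays. Their summed intensity was 9.65 log2 after OR21 and 9.75 in the control, mostly that of COL1A2, at 9.13 and 9.34. PDGFRA was higher after OR21, at 6.26 against 5.19, while DCN, LUM, THY1 and DPT were under background on the treated array. In SKM1, 2 of 9 lay above background after OR21 and 1 in the control, with summed intensities of 9.67 and 9.49, and THY1 stood at 6.20 against 3.79.

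**Figure D2:**
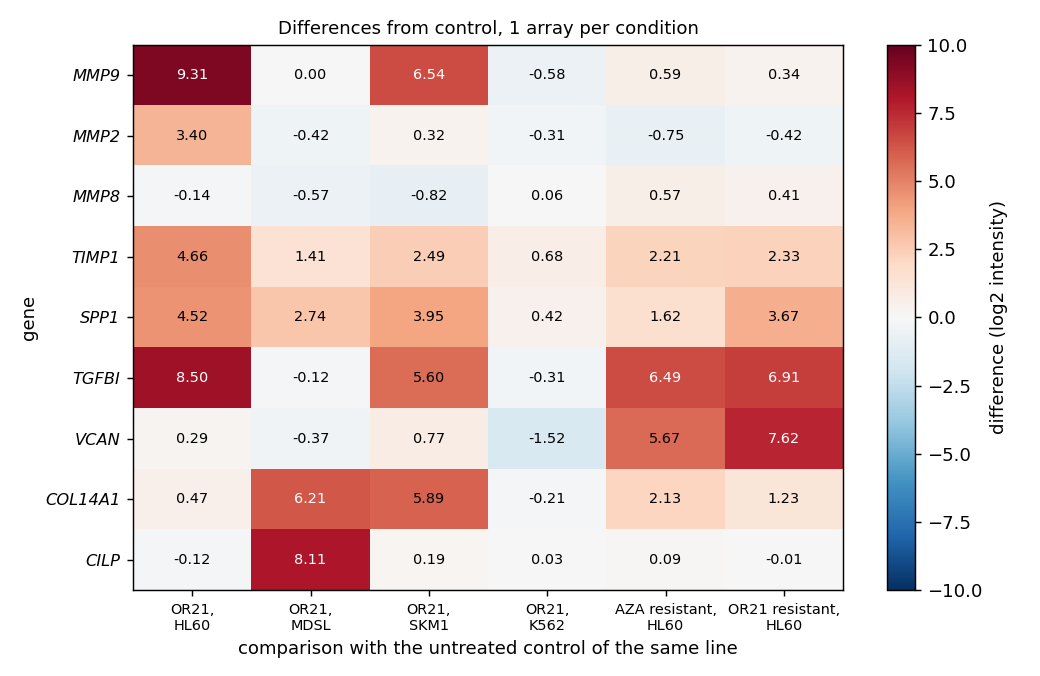
Difference in log2 intensity from the control of the same line for the 9 measured genes (rows) in the 6 comparisons (columns). Each condition had 1 array, and the 3 HL60 columns share 1 control. TIMP1 and SPP1 are positive in every column, whereas VCAN is at 5.67 and 7.62 in the resistant derivatives and at 0.29 in treated HL60.

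Over the 4 lines the mean OR21 difference was smaller in size than its SD for 7 genes. MMP9 averaged 3.82 ± 4.88 log2, with 1.99 when HL60 was left out, and TGFBI 3.42 ± 4.36, with 1.72 when HL60 was left out (SD, n = 4 lines each). COL14A1 averaged 3.09 ± 3.43, with 2.05 without MDSL, and CILP 2.05 ± 4.04, with 0.03 without MDSL. MMP2 had 0.75 ± 1.80, turning to -0.13 without HL60, VCAN had -0.21 ± 0.99, turning to 0.23 without K562, and MMP8 had -0.37 ± 0.40. Controls under background enter these means at their measured values. With values raised to the background median the means were 3.13 ± 3.61 for TGFBI, 2.74 ± 3.22 for COL14A1, 1.94 ± 3.85 for CILP, 0.07 ± 0.26 for VCAN and 0.09 ± 0.17 for MMP8, the signs of VCAN and MMP8 turning. The MDSL arrays had unequal background medians, 4.98 in the control and 5.42 after OR21. There the floor put VCAN at 0.42 and MMP8 at 0.34, against measured -0.37 and -0.57, and the median of all genes at 0.25. The turned signs thus reflect the unequal floor in MDSL. TIMP1 and SPP1, described above, were the 2 genes higher in 4 of 4 lines.

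The other genes of the matrix were taken from 7 lists by role, with 239 genes measured. In the limma fit over the 4 lines with the line as a block, 0 of them passed an adjusted p of 0.05 in either direction. Over all genes, 7 passed as higher (0.0396% of 17687) and 0 as lower (0%). At an unadjusted p under 0.05 there were 34 of the 239 (14.2%), 26 higher and 8 lower, beside 3372 of all genes (19.1%). This balance of directions changed with the scaling, to 19 higher and 13 lower with quantile normalization and to 14 higher and 18 lower with arrays centred on their median. The smallest adjusted p was that of EFEMP2, a glycoprotein needed for elastic fibre assembly, which averaged 1.44 ± 0.25 log2 and was higher in 4 of 4 lines (limma adjusted p = 0.0925). CTSL, the lysosomal protease cathepsin L, averaged 1.28 ± 0.59 and was also higher in 4 of 4 lines (limma adjusted p = 0.117). PLAUR, the urokinase receptor, was higher by 2.92 in treated HL60 and 1.85 in treated SKM1 (limma adjusted p over the 4 lines = 0.149).

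By size alone, treated HL60 held 39 of the 239 genes higher by 2-fold or more and 8 lower, a share of 16.3% higher and 3.35% lower, against 10.2% and 11.1% of all genes. SKM1 had 28 higher (11.7%, against 7.1% of all genes) and 10 lower (4.18%, against 4.47%). MDSL had 16 higher (6.69%, against 6.62%) and 10 lower (4.18%, against 4.88%), shares near those of all genes. K562 had 19 higher (7.95%, against 5.05%) and 3 lower (1.26%, against 3.86%). The AZA resistant derivative had 30 higher (12.6%, against 7.04%) and 5 lower (2.09%, against 5.11%), and the OR21 resistant derivative had 34 higher (14.2%, against 7.69%) and 6 lower (2.51%, against 4.27%). The median difference of the 239 genes was at most 0.13 log2 from 0 in all 6 comparisons, and that of all genes at most 0.07. Most matrix genes thus did not move by 2-fold in any 1 comparison.

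**Figure D3:**
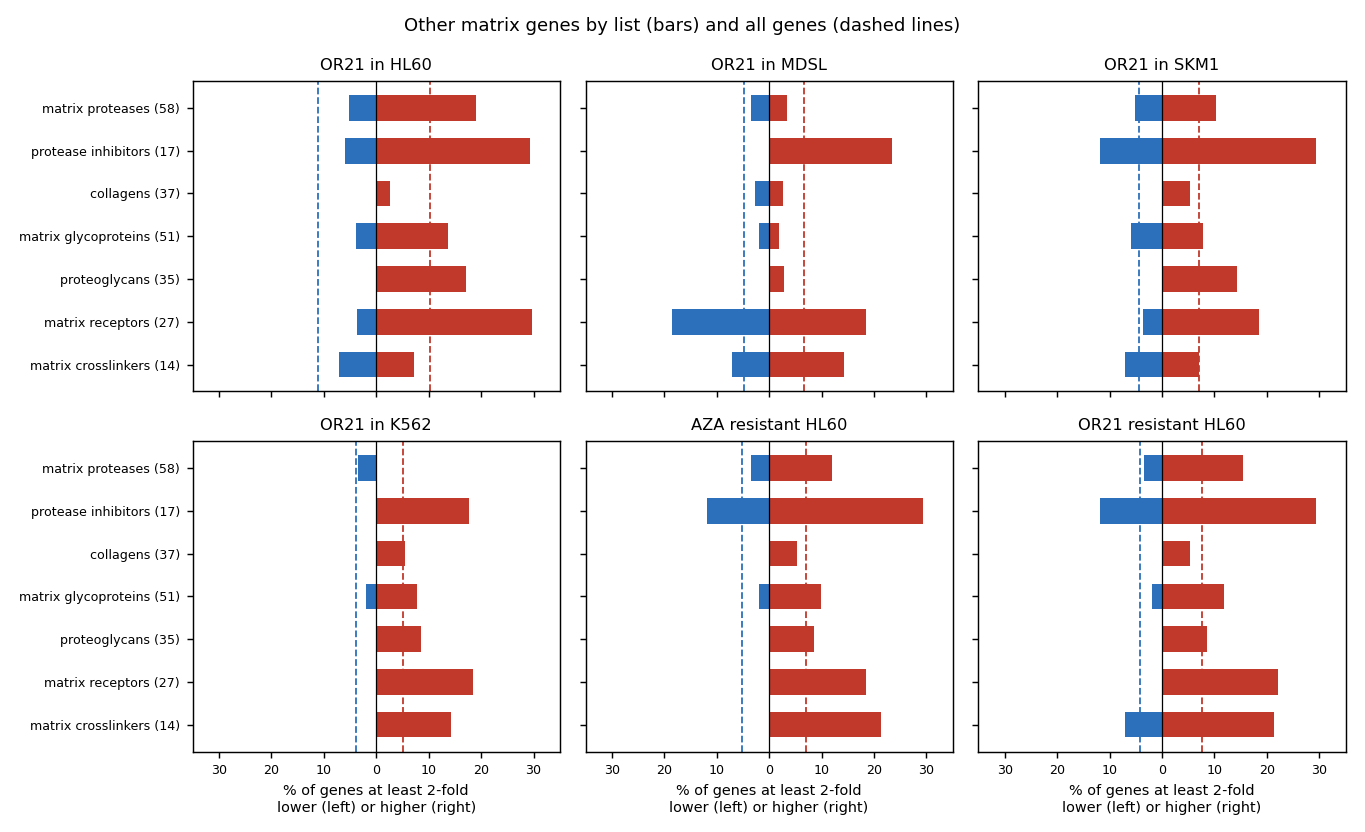
Share of measured genes at least 2-fold higher (red, right) and lower (blue, left) than the control in 7 lists of other matrix genes, with the number measured in brackets, in the 6 comparisons. Dashed lines give the share of all 17687 genes. In treated HL60, matrix receptors stand at 29.6% higher, protease inhibitors at 29.4% and collagens at 2.70%.

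Among 58 other matrix proteases, 11 were at least 2-fold higher and 3 lower in treated HL60 (19.0% and 5.17%, against 10.2% and 11.1% of all genes). HPSE, heparanase, which cleaves heparan sulphate, stood at 9.03 log2 in treated HL60, 8.46 and 8.12 in the AZA and OR21 resistant derivatives, and 5.32, under background, in the control, giving minimum differences of 3.62, 3.04 and 2.70. MMP14, a membrane-bound metalloproteinase that activates MMP2, was at 7.24 in treated HL60 against 3.96 in the control, a minimum of 1.83, and at 9.50 in treated SKM1 against 7.23. PRTN3, the serine protease proteinase 3 of primary granules, went the other way. Its differences were -3.30 log2 in treated HL60, -2.75 in treated SKM1, -4.15 in the AZA resistant and -3.88 in the OR21 resistant derivative. In K562, 0 of the 58 were at least 2-fold higher, against 5.05% of all genes, and 2 were lower (3.45%, near the 3.86% of all genes).

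Of 17 other protease inhibitors, 5 were at least 2-fold higher and 1 lower in treated HL60 (29.4% and 5.88%, against 10.2% and 11.1% of all genes). SKM1 had 5 higher and 2 lower (29.4% and 11.8%, against 7.1% and 4.47%), MDSL 4 higher and 0 lower (23.5% higher, against 6.62%) and K562 3 higher and 0 lower (17.6% higher, against 5.05%). SERPINA1, the inhibitor of neutrophil elastase, was at 14.75 log2 in treated HL60 against 9.07 in the control. It was at 10.86 against 8.86 in MDSL and at 12.32 against 8.05 in SKM1, while its difference in K562 was -0.16. Over the 4 lines it averaged 2.95 ± 2.57 (limma adjusted p = 0.169). In each derivative 5 of the 17 were at least 2-fold higher and 2 lower (29.4% and 11.8%, against 7.04% and 5.11% of all genes for AZA resistance and 7.69% and 4.27% for OR21 resistance). SERPINE2, which inhibits thrombin and urokinase, was at 8.33 in the AZA resistant and 8.58 in the OR21 resistant derivative, against 6.53 in control HL60. The 2 lower genes were SLPI, a secreted leukocyte protease inhibitor, and CST7, a cystatin of leukocytes. SLPI was at 7.20 in the AZA resistant and 6.53 in the OR21 resistant derivative, against 11.36 in control HL60. CST7 was at 8.40 and 7.66, against 13.78.

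Glycoproteins and crosslinking enzymes held further genes with high values in the derivatives. SPARC, a collagen-binding matricellular protein, stood at 10.66 log2 in treated HL60, 9.14 in the AZA resistant and 10.47 in the OR21 resistant derivative, against 4.19 in the control. NID1, which links laminin to type IV collagen, stood at 8.49, 10.65 and 11.56 on the same arrays, against 5.16. Like TGFBI, both were under background in control HL60, with minimum differences of 3.07 to 6.15. THBS1, the adhesive glycoprotein thrombospondin, was at 12.42 in treated HL60 against 5.89 in the control. F13A1, the transglutaminase that crosslinks fibrin, was at 12.79 and 11.33 in the AZA and OR21 resistant derivatives against 7.51 in control HL60. In treated MDSL another transglutaminase, TGM2, was at 9.65 against 5.66 in the control, and LOXL1, which crosslinks elastin, at 7.86 against 5.83.

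Proteoglycans and matrix receptors were also uneven between lines. The heparan sulphate proteoglycan SDC2 was at 9.67 log2 in treated HL60 against 5.76 in the control, at 9.17 against 7.35 for SKM1 and at 11.40 against 8.41 for K562, while its difference in MDSL was -0.15. HSPG2, the basement membrane proteoglycan perlecan, was at 9.81 in treated MDSL against 7.47 in the control. CD44, the receptor for hyaluronan and osteopontin, was higher by 3.67 in treated HL60 and by 1.76 in treated SKM1, with differences of 0.59 in K562 and -0.24 in MDSL. Of 27 receptors, 8 were at least 2-fold higher and 1 lower in treated HL60 (29.6% and 3.70%, against 10.2% and 11.1% of all genes). SKM1 had 5 higher and 1 lower (18.5% and 3.70%, against 7.1% and 4.47%), and K562 5 and 0 (18.5% higher, against 5.05%). With AZA resistance 5 were higher and 0 lower (18.5% higher, against 7.04%), and with OR21 resistance 6 and 0 (22.2% higher, against 7.69%). Treated MDSL had 5 higher and 5 lower (18.5% each, against 6.62% and 4.88%). ITGB3, an integrin chain of platelets and megakaryocytes, was higher there by 3.49, while ITGA4 and ITGA5, integrin chains that bind fibronectin, stood at 10.98 and 10.81 against 12.99 and 12.89 in the control.

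Markers of other cell types and lineages differed beside the matrix genes in several comparisons. Some control arrays already carried epithelial markers, with a summed intensity of 12.64 log2 in control SKM1 and 16.19 in control K562. On the treated HL60 array 5 of 6 epithelial markers lay above background, against 2 of 6 in the control, with a summed intensity of 12.67 log2 against 9.51. Most of that sum was KRT8, at 12.08 against 9.17. KRT18 stood at 10.87 against 4.87 and CDH1 at 7.36 against 3.77, while EPCAM was at 5.76 against 4.94 and KRT5 was under background in both. Of the 7 endothelial markers 3 lay above background, against 4 in the control, and PECAM1, which leukocytes also carry, stood at 14.82 against 10.24. CDH5, KDR and TEK were under background on the treated HL60 array. Myeloid markers moved there too, with 5 of 7 at least 2-fold higher and 1 lower (71.4% and 14.3%, against 10.2% and 11.1% of all genes). CD14 stood at 14.60 against 7.64, ITGAM at 9.90 against 5.98 and PTPRC at 14.32 against 11.35. The lower gene was MPO, at 15.97 against 17.01. In the AZA and OR21 resistant derivatives KRT18 stood at 8.18 and 8.62, against 4.87 in control HL60, and PECAM1 at 12.48 and 12.03, against 10.24. Their epithelial markers above background were 3 and 4 of 6, against 2 of 6 in the control, with summed intensities of 10.30 and 10.21 log2 against 9.51. Of 7 myeloid markers, 2 were at least 2-fold higher and 1 lower with AZA resistance (28.6% and 14.3%, against 7.04% and 5.11% of all genes). With OR21 resistance 4 were higher and 1 lower (57.1% and 14.3%, against 7.69% and 4.27%). CD14 stood at 8.01 and 10.70 in the AZA and OR21 resistant derivatives, against 7.64 in control HL60. CSF1R stood at 8.59 and 9.40, against 6.92, and CSF3R at 7.03 and 6.60, against 8.49. In MDSL, 3 of 4 erythroid markers were at least 2-fold higher after OR21 and 0 lower, against 6.62% and 4.88% of all genes. Among the higher markers, HBE1 stood at 8.04 against 5.83. The myeloid marker MPO stood at 13.11 against 8.62. The summed erythroid intensity of 14.67 log2 against 14.52 was mostly that of TFRC, at 14.15 against 14.39. In SKM1, 1 of the 4 erythroid markers was at least 2-fold higher and 0 lower, against 7.1% and 4.47% of all genes. The higher marker was the factor GATA1, at 10.29 against 6.49. The summed intensity there, 13.44 log2 against 14.18, was mostly that of TFRC, at 13.25 against 14.17. In MDSL, 2 of 7 myeloid markers were at least 2-fold higher and 1 lower (28.6% and 14.3%, against 6.62% and 4.88% of all genes). SKM1 also had 2 higher and 1 lower, against 7.1% and 4.47% of all genes. ITGAM stood at 12.36 against 9.83 in MDSL and at 11.58 against 7.43 in SKM1. Lower were CSF3R in MDSL, at 9.52 against 10.93, and MPO in SKM1, at 15.99 against 17.08. The part of these markers in the matrix gene values was not tested.

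By Pearson correlation of log2 levels over the 10 arrays, among 11074 genes, the profile closest to MMP9 was that of TREM1, an activating receptor of neutrophils and monocytes (r = 0.99). TP53I11 (r = 0.98) and HSPA2 (r = 0.97), a heat shock protein of the testis, came next. Closest to TGFBI were PLA2G7, which inactivates platelet-activating factor (r = 0.99), HPSE and the peptidoglycan sensor NOD2 (r = 0.97 each). VCAN was followed by the connexin gene GJC1, the kinesin motor KIF17 and HSD11B1, which regenerates cortisol (r = 0.98 each). For COL14A1 the closest were CAMTA2 and the pepsinogen genes PGA3 (r = 0.96 each) and PGA4 (r = 0.95), near-identical copies whose probe sets are uncertain. For CILP they were C4BPA, an inhibitor of complement (r = 0.99), the tubulin gene TUBB4A and BPIFB3 (r = 0.98 each). These correlations describe 10 arrays from 4 lines and rest on the 1 to 4 arrays where each gene was high.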

How the data were processed

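RNA from cultured cells was hybridised to single-colour arrays after biotin labelling, per the labels. The authors deposited linear intensities, 1 per probe set, between 4.25 and 405294. In the sources used here, their software and normalization are not given. Over all genes the lower quartiles of the 10 arrays lay between 4.82 and 4.93 log2, the medians between 6.63 and 7.05 and the upper quartiles between 9.62 and 9.79, so no further normalization was applied before taking log2 values without a pseudocount.

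The table held 24351 rows, and 0 columns belonged to no sample. A platform annotation gave 1 symbol to 17709 probe sets and several to 0, and 6642 rows were unnamed. For the 20 genes with several probe sets the brightest was kept, which left 17687 genes. Entrez identifiers, looked up in RefSeq, updated 0 symbols. Promoters were read from RefSeq (GRCh38.p14) in Python 3.11.15.

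limma 3.58.1 in R 4.3.3 (lmFit, eBayes, two-sided, Benjamini-Hochberg over all genes) was fitted to the 8 treated and control arrays of the 4 lines with the line as a block. Separate cultures are not stated in the labels, and p-values rest on the spread between lines, in which dose, disease and array noise are mixed. On data simulated at the fitted spread, the fit called 20 of 100 genes moved by 1 log2 unit, 95 of 100 moved by 2 units and 7 unmoved genes. The moved genes were drawn at random and moved equally in all 4 lines. These shares therefore need not hold for genes whose difference varied between lines, such as SERPINA1 (2.95 ± 2.57 log2). Single comparisons had 1 array per condition and no test. Members and lists were chosen with earlier results of these data known. Other matrix genes were named where they were among the 3 largest differences of their list in a comparison, at least 2-fold and at or above the array median on the higher side. Genes of like profile were the 3 highest correlations among genes that reached an array median. The number of arrays limits the precision.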

Additional observations from a re-analysis of the deposited data

How the results depend on the processing

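The alternatives were quantile normalization, centring on the array median, a floor at the background median, a filter on genes below the 30th percentile of mean level (of the 9 genes, MMP8 fell away), the mean of probe sets, a pseudocount of 16 and, chosen after seeing the data, scaling to the hybridisation spikes. Among 372 recomputed differences of the 9 genes 0 reversed a difference of at least 2-fold, and 23 changed sign or crossed 2-fold. The count of genes at least 2-fold higher was within 1.5 times of its value in all 6 comparisons. The 1 gene lower in treated K562, VCAN, became 0 with the floor and with the pseudocount. COL14A1 in the OR21 resistant derivative dropped to 0.34 with the floor and 0.84 with the pseudocount. In limma, the 7 genes past the threshold became 3 with the floor, 3 with the pseudocount, 1 with no cell line block, 0 to 5 with 1 line left out (0 without SKM1, where 2181 had an unadjusted p under 0.05, 1 without HL60 and 2 without K562) and 240 with spike scaling, which shifted the median of all genes to -0.81 log2 in treated HL60. Of the 239 other matrix genes, 0 passed in each of these fits except spike scaling, where SERPINA1, SDC2 and ITGB7, 3 in all, passed as higher (limma adjusted p = 0.0251, 0.0392 and 0.0496). Centring put the median of all genes at -0.22 log2 in treated HL60, against -0.05 as deposited. The fit with the line as a block is itself the paired analysis, each treated array being paired with the control of its line, and no replicate numbers are given beyond that. Values near background limit TGFBI, VCAN, COL14A1, CILP and MMP8.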
